A study of Mus musculus with 6 samples.

Results

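The 13 protein-coding genes of the mouse mitochondrial chromosome were followed in hippocampal RNA after deletion of Dicer1 in forebrain excitatory neurons. They are the rows with chromosome MT in the count tables, 13 of 25896 gene symbols, and the rule uses their location and no measured value. GENCODE release M21 annotates 37 genes on the chromosome, 13 coding for proteins, 2 for ribosomal RNAs and 22 for transfer RNAs; the tables hold rows for the 13 coding genes, and the ribosomal and transfer RNAs were not analysed here. All 13 rows had the same coordinates in that release, and positions are given in GRCm38; these genes have no introns, and 12 of them lie on the plus strand.

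The 6 libraries were 3 DICER1-ifKO and 3 WT, each made from the pooled hippocampal RNA of 3 mice. The mice of both groups were male C57BL/6 animals carrying the floxed Dicer1 alleles (flox/flox), received tamoxifen, and the hippocampus was taken 3 weeks after it, at an age of 3 months. DICER1-ifKO mice also carried the CaMKIIa-creERT2 transgene, a tamoxifen-dependent Cre recombinase under a promoter of forebrain excitatory neurons; WT mice had no Cre, so that a group with Cre and unfloxed Dicer1 does not enter the comparison. Whole hippocampus also holds inhibitory neurons, glia and vascular cells in which that promoter is not active, and in such bulk RNA fewer cells of a type cannot be told apart from less RNA per cell. p-values measure the spread between these pools.

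The mitochondrial genome is a small circular DNA present in many copies per cell. Both of its strands are transcribed almost whole into long RNAs, which are cut at the transfer RNAs that lie between most coding genes, so that messages made from 1 precursor can still differ in level through their stability. Its 13 proteins are core subunits of respiratory chain complexes I, III and IV and of the ATP synthase, complex V; all other subunits, and every factor that copies, transcribes or processes mitochondrial DNA and RNA, are encoded in the nucleus. DICER1 cuts microRNA precursors, and neurons, which use much of their ATP for ion transport, hold abundant mitochondrial messages.

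The genome has little space between genes, and 3 pairs of coding genes share more than 1 base. mt-Atp8 and mt-Atp6 share 43 bases in different reading frames, mt-Nd4l and mt-Nd4 share 7, and mt-Nd5 and mt-Nd6, which lie on opposite strands, share 14 at their ends. A read over such bases belongs to both rows. The first 2 pairs are each carried on 1 bicistronic message. Their upstream genes are shown whole, since the sequence shows how much of each row is its own, with the shared bases in capitals and coordinates in GRCm38 (GENCODE M21 sequence).
mt-Atp8 (MT:7766-7969, plus strand): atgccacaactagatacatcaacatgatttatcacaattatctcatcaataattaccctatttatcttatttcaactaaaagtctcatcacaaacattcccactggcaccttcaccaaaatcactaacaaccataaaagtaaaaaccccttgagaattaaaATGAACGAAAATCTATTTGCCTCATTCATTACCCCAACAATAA
mt-Nd4l (MT:9877-10173, plus strand): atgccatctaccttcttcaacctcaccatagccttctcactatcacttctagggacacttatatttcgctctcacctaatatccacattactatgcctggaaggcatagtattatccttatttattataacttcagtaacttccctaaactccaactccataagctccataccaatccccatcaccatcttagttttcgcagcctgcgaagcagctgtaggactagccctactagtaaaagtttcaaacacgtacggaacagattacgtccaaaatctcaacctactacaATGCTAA
The ends of the opposing pair are shown with the bases that are complementary in the other gene in capitals.
mt-Nd5 end (MT:13536-13565, plus strand): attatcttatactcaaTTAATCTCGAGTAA
mt-Nd6 end (MT:13552-13581, minus strand): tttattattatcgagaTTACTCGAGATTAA

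The 3′ ends bear on how these messages are captured, because the library kit selects RNA with a poly(A) tail. In 3 of the 13 genes, mt-Co3, mt-Nd4 and mt-Cytb, the length left 1 base after the last full codon, and the gene ended in a lone T; the poly(A) tail supplies the rest of the stop codon in such messages. The last 30 bases of these 3 are shown beside those of mt-Co1 and mt-Nd6, which end in a full stop codon, with the terminal stop bases in capitals.
mt-Co3 end: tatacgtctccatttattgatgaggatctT
mt-Nd4 end: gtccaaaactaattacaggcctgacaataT
mt-Cytb end: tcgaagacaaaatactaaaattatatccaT
mt-Co1 end: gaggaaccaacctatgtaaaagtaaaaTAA
mt-Nd6 end: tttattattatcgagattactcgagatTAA
The annotated stop bases were TAG in mt-Nd1 and mt-Nd2 and TAA in the other 8 genes. The annotated ends of mt-Nd1 and mt-Nd2 run into the transfer RNA gene that follows on the same strand (gap of -2 bases in each). Whether their cut messages keep the full TAG was not tested. In human cells the ND6 message is known to carry little or no poly(A) tail. mt-Nd6 also stood apart in base composition, with 28.1% G and 5.97% C in its coding strand, against 5.88% to 16.1% G and 22.1% to 29.97% C in the other 12 genes.

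For 5 of the coding genes, the search below found nuclear copies that match part or nearly all of their sequence without a difference. This bears on how reads of these genes are assigned. A search of the GENCODE M21 transcripts (at least 90% identity) found 18 nuclear transcripts that match 11 of the 13 genes. It listed none for mt-Nd1 and mt-Atp8, but copies that are not annotated as transcripts were not searched. Nearly all of the bases that mt-Atp8 shares with mt-Atp6 lie in the exact copy of mt-Atp6 given below, so mt-Atp8 is not free of copied bases. A block of 7 pseudogenes lies on the minus strand of chromosome 1 (chr1:24611535-24616197). It held exact matches to 876 bases of mt-Nd4, 783 of mt-Co3, 681 of mt-Co2, 678 of mt-Atp6 and 294 of mt-Nd4l. The block differed from mt-Nd3 by T3C over 345 aligned bases. From mt-Co1 it differed by A1066T over 483 aligned bases, 31.3% of that gene. Positions are counted from 1 at the 5′ end of the mitochondrial gene. A whole-length copy of mt-Co1 on chromosome 2, Gm13340, is 97.6% identical; its first 90 bases are shown beside those of mt-Co1, with the 3 differences in capitals, to show how little sets a read from one apart from the other.
mt-Co1 (MT:5328-5417, plus strand): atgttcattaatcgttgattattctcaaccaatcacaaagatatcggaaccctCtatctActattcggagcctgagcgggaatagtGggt
Gm13340 (chr2:22589558-22589647, minus strand): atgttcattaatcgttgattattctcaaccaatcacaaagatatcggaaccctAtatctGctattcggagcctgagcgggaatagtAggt
Over the 1545 bases there were 37 differences, and the longest stretch without one was 148 bases.

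The tables hold rows that lie over such copies, and their counts followed the mitochondrial genes. Gm10222, the copy of mt-Nd4l on chromosome 1, had 15404, 19747 and 21686 counts in DICER1-ifKO libraries, against 12896, 16183 and 14184 counts in WT libraries. mt-Nd4l had 15682, 20224 and 22071 counts in DICER1-ifKO libraries, against 13178, 16509 and 14494 counts in WT libraries, so that Gm10222 took 97.6% to 98.3% of its count in every library. Myo3a, a myosin gene whose intron holds Gm13340 on the other strand, was the third most counted gene, at 1.05% to 1.17% of all counts. The 3 Myo3a transcripts that span the copies each had a mean count of 178200, and the other 3, which do not, had means of 3.0, 0.5 and 0.5. Whether reads of nuclear origin enter the mitochondrial rows was not tested. Counts also covered introns and both strands: in 60 of 60 genes lying inside an intron of another gene, 40 of them on the other strand, the host's count was at least as high as that of the nested gene. Gm10222, Myo3a and AC154271.1, which lies over a copy of mt-Nd5, were then added to the 13 genes. The mitochondrial share described further on became 10.48% ± 0.130 in DICER1-ifKO libraries and 10.37% ± 0.839 in WT libraries (SD, n = 3 each). Stxbp4, over another copy of mt-Co1 (mean count 3128), was not added. No row lies over the chromosome 1 copies of mt-Co1, mt-Co2, mt-Co3, mt-Atp6 and mt-Nd3, so these shares do not account for all nuclear copies.

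Counts summed over 1 representative transcript per gene were 15409076, 18008739 and 20677846 in the DICER1-ifKO libraries, against 11832791, 15826347 and 16125477 in the WT libraries. At these depths 3 counts equal 0.145 to 0.254 CPM (counts scaled to the library total after TMM normalisation), so that counting error is small beside the levels of the mitochondrial genes and the spread between pools sets the precision. The targeted gene itself read 58.2, 63.0 and 58.0 CPM in DICER1-ifKO libraries, against 55.6, 62.0 and 55.8 CPM in WT libraries (log2 fold change 0.04, SE 0.06, edgeR adjusted p = 0.849). The Dicer1 row spans the whole gene, introns included, and the tissue holds cells without Cre, so this value does not check the deletion. All 10 markers of hippocampal excitatory neurons were measured, with a summed level of 5253 to 5566 CPM in DICER1-ifKO libraries and 5099 to 5198 CPM in WT libraries. Camk2a made up most of that sum, with 3497 to 3713 CPM in DICER1-ifKO libraries and 3279 to 3393 CPM in WT libraries. The median log2 fold change of the 10 was 0.00, with 6 positive and 4 negative; Man1a, at -0.16, was the lowest of them. Of 55 genes tested from the 9 tissue marker lists 0 passed, beside 0.161% of all genes, a count close to the background. Oligodendrocyte markers summed to 3852 to 4434 CPM in DICER1-ifKO libraries and 3709 to 4560 CPM in WT libraries. Astrocyte markers summed to 1013 to 1037 CPM in DICER1-ifKO libraries and 1040 to 1067 CPM in WT libraries.

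The mitochondrial share of all counts did not separate the genotypes. It was 9.20%, 9.39% and 9.18% in the DICER1-ifKO libraries, against 9.99%, 9.001% and 8.47% in the WT libraries. The 3 DICER1-ifKO libraries lay close together and inside the range of the WT libraries, which held both the highest and the lowest share. The means were 9.26% ± 0.114 in DICER1-ifKO libraries and 9.15% ± 0.769 in WT libraries (SD, n = 3 each), a difference of 0.106 percentage points. Wilson 95% intervals, which cover counting error only, were 9.97% to 10.004% for WT replicate 1 and 8.458% to 8.486% for WT replicate 3, so the distance between these WT pools exceeds counting error. Without WT replicate 1 the log2 ratio of the mean shares, 0.02 with all libraries, was 0.08, and without WT replicate 3 it was -0.04. As a share of all 76938 transcript rows, which list many reads repeatedly, the values were 3.81%, 3.90% and 3.82% in DICER1-ifKO libraries, against 4.22%, 3.74% and 3.51% in WT libraries.

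**Figure D1:**
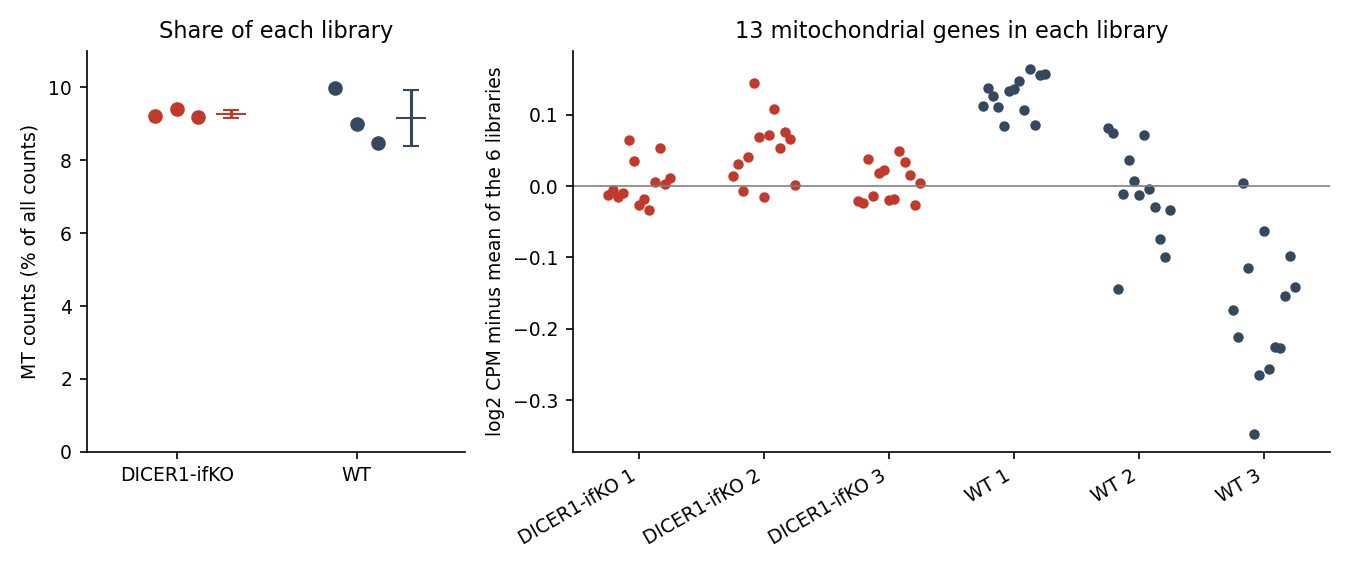
Left, counts of the 13 mitochondrial genes as a percentage of all counts in each library (points) with the mean and SD of the 3 libraries of each genotype; right, each gene's log2 CPM in a library minus its mean over the 6 libraries. The DICER1-ifKO libraries sit at 9.18% to 9.39%, inside the WT range of 8.47% to 9.99%, and in the right panel most genes are above their mean in WT 1 and below it in WT 3.

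The WT spread was shared by all 13 genes. The SD of log2 CPM over 3 libraries was larger in WT than in DICER1-ifKO for 13 of 13 genes, with a median of 0.03 in DICER1-ifKO libraries and 0.16 in WT libraries. Among 3837 nuclear genes with a mean count of 1000 or more, the SD was larger in WT for 62.9%, with medians of 0.05 in DICER1-ifKO libraries and 0.06 in WT libraries. WT replicate 1 was the highest of the 6 libraries for 11 of the 13 genes and WT replicate 3 the lowest for 11. mt-Cytb (MT:14145-15288), the mitochondrially encoded subunit of complex III, showed this most plainly: it had 7306, 7259 and 7269 CPM in DICER1-ifKO libraries, against 8084, 7081 and 6575 CPM in WT libraries. The 13 genes come from the same libraries and from few precursor RNAs, so their common spread is 1 observation on 3 pools and not 13; no test of a difference in spread was made.

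None of the 13 genes passed the test for a difference between genotypes (edgeR quasi-likelihood test, Benjamini-Hochberg adjusted p below 0.05 over 17405 genes). Over all genes tested 0.161% passed, 0.126% higher and 0.0345% lower in DICER1-ifKO, so that 0 of 13 is close to the background. At an unadjusted p below 0.05 the count was also 0 of 13, beside 10.4% of all genes. DESeq2 called 0 of 13, beside 74 of 4748 genes in that test. In no mitochondrial gene did the CPM of the 3 DICER1-ifKO libraries lie apart from those of the 3 WT libraries, beside 16.1% of all genes. The fitted log2 fold change was positive for 10 of 13 genes with a median of 0.02, and positive for 49.0% of all genes with a median of -0.00. The signs depended on single libraries: leaving out WT replicate 1 made all 13 positive (median 0.10) and leaving out WT replicate 3 left 3 of 13 positive (median -0.04).

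The complex I genes are 7 of the 13 and encode subunits of the NADH dehydrogenase that passes electrons from NADH to ubiquinone and pumps protons. mt-Nd1 (MT:2751-3707) lies where ubiquinone enters the complex, and it had 5961, 6071 and 5927 CPM in DICER1-ifKO libraries, against 6495, 6358 and 5330 CPM in WT libraries. The WT pools lay on both sides of the DICER1-ifKO pools (log2 fold change -0.02, 95% interval -0.14 to 0.11, edgeR adjusted p = 0.95). mt-Nd2, mt-Nd4 and mt-Nd5 are the antiporter-like subunits of the membrane arm that move protons. mt-Nd2 (MT:3914-4951) had 5033, 5164 and 4971 CPM in DICER1-ifKO libraries, against 5558, 5319 and 4364 CPM in WT libraries. mt-Nd4 (MT:10167-11544) had 8941, 9246 and 9122 CPM in DICER1-ifKO libraries, against 9981, 8731 and 7610 CPM in WT libraries. Both again had WT pools above and below all DICER1-ifKO pools.

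mt-Nd5 (MT:11742-13565), the longest of the 13 genes, had 4739, 4811 and 4615 CPM in DICER1-ifKO libraries, against 4844, 4339 and 4105 CPM in WT libraries. WT replicate 1 was above all DICER1-ifKO libraries and the other 2 WT libraries below them (log2 fold change 0.09, SE 0.05, 95% interval -0.02 to 0.21, edgeR adjusted p = 0.604). Its log2 fold change was 0.16 without WT replicate 1 and 0.04 without WT replicate 3. The small membrane subunits gave the lowest counts. mt-Nd3 (MT:9459-9806) averaged 963.5 ± 34.8 CPM in DICER1-ifKO libraries and 953.8 ± 136 CPM in WT libraries (SD, n = 3 each). mt-Nd4l (MT:9877-10173) had 1018, 1123 and 1078 CPM in DICER1-ifKO libraries, against 1122, 1039 and 891 CPM in WT libraries. mt-Nd6 (MT:13552-14070), the only coding gene on the minus strand, had 1841, 1923 and 1803 CPM in DICER1-ifKO libraries, against 2047, 1714 and 1716 CPM in WT libraries. The groups overlapped in all of these, and the 95% intervals of the log2 fold changes were -0.13 to 0.16 for mt-Nd3, -0.05 to 0.21 for mt-Nd4l and -0.10 to 0.15 for mt-Nd6.

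The 3 cytochrome c oxidase genes encode the catalytic core of complex IV, which passes electrons to oxygen. mt-Co1 (MT:5328-6872) carries the site of oxygen reduction and had the highest mean count of any gene in the tables, with 23230, 23360 and 24110 CPM in DICER1-ifKO libraries, against 25620, 21250 and 23550 CPM in WT libraries. Its lowest library was WT replicate 2, as for mt-Nd6, and not WT replicate 3 as for the other 11 genes. mt-Co2 (MT:7013-7696), which receives electrons from cytochrome c, had 8432, 8731 and 8412 CPM in DICER1-ifKO libraries, against 9166, 8423 and 7843 CPM in WT libraries. mt-Co3 (MT:8607-9390), a structural subunit, had 8361, 8429 and 8405 CPM in DICER1-ifKO libraries, against 9357, 8447 and 8157 CPM in WT libraries. Its fold change was the most negative of the 13 (log2 -0.04, SE 0.05, 95% interval -0.15 to 0.07, edgeR adjusted p = 0.83).

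mt-Atp6 and mt-Atp8 encode some of the membrane subunits of ATP synthase, mt-Atp6 one that takes part in the proton path. mt-Atp6 (MT:7927-8607) was second of all genes by mean count, with 13650, 13960 and 13520 CPM in DICER1-ifKO libraries, against 14600, 13380 and 11080 CPM in WT libraries. mt-Atp8 (MT:7766-7969) had 2633, 2784 and 2549 CPM in DICER1-ifKO libraries, against 2668, 2582 and 1980 CPM in WT libraries. Its fold change was the most positive of the 13 (log2 0.14, SE 0.07, 95% interval -0.02 to 0.30), with an unadjusted p = 0.075 and an edgeR adjusted p = 0.541. That value rests on WT replicate 3, the lowest library for mt-Atp8: without it the log2 fold change was 0.02.

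**Figure D2:**
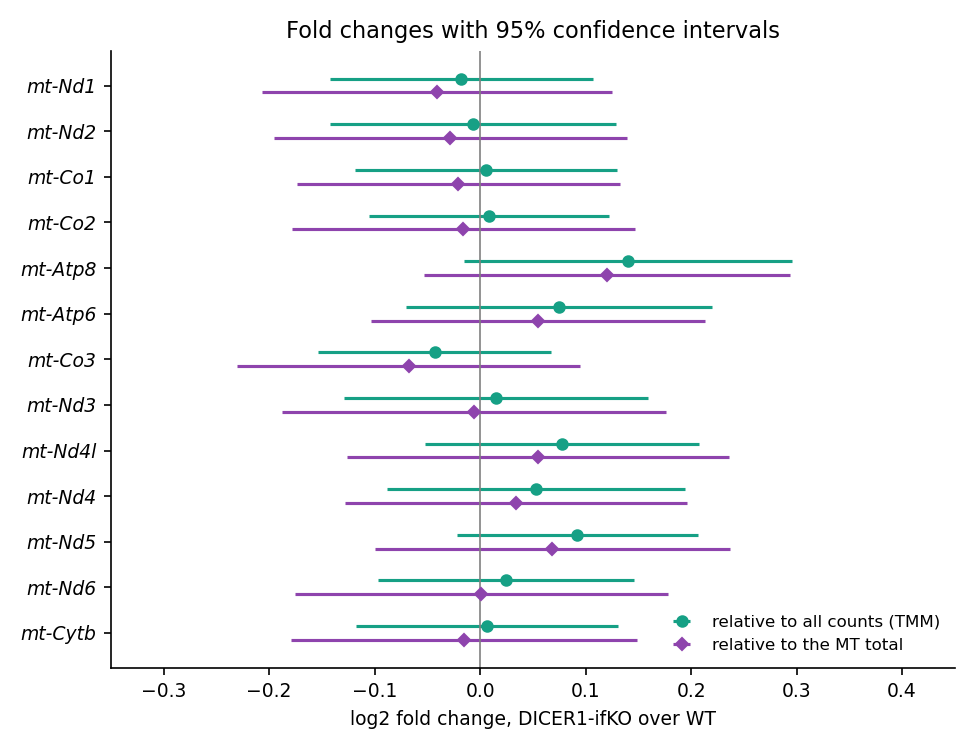
Fitted log2 fold change, DICER1-ifKO over WT, of each mitochondrial gene with its 95% confidence interval, relative to all counts (green circles) and relative to the mitochondrial total (purple diamonds). Every interval includes 0, and the estimates relative to all counts run from -0.04 for mt-Co3 to 0.14 for mt-Atp8. The intervals relative to the mitochondrial total take their width largely from the spread of all genes on that scale.

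The intervals give the differences that the edgeR fit leaves possible, with a spread that the fit draws partly from all genes. They can be too narrow for a gene whose own pools spread more. By DESeq2 the SE of mt-Atp8 was 0.13, against 0.07 by edgeR, and that of mt-Co3 was 0.05 by both. Across the 13 genes the lowest bound was -0.15 (mt-Co3) and the highest 0.30 (mt-Atp8) on the log2 scale; for mt-Co1 the interval was -0.12 to 0.13 and for mt-Cytb -0.12 to 0.13. A p that misses the threshold does not show equal levels, and these bounds are not limits of detection.

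The genes differed far more from each other than between genotypes. Per kilobase of gene length, the mean level over the 6 libraries ran from 19630 CPM per kb for mt-Atp6 to 2508 CPM per kb for mt-Nd5, a 7.83-fold range. mt-Atp6 was above mt-Co1 (15220 CPM per kb) in 6 of 6 libraries, although their ranges over libraries overlapped. mt-Co1 stood clear of mt-Co2 (12430 CPM per kb), which could not be separated from mt-Atp8 (12410 CPM per kb); mt-Co2 was the higher in 2 of 6 libraries. mt-Co3 followed at 10880 CPM per kb, below mt-Atp8 in 5 of 6 libraries.

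Below mt-Co3 there was a gap without overlap to a group made of mt-Nd4 (6487 CPM per kb), mt-Cytb (6348 CPM per kb) and mt-Nd1 (6295 CPM per kb), whose ranges overlapped. mt-Nd2 (4882 CPM per kb) stood apart from mt-Nd1 above it and from mt-Nd6 below it. mt-Nd6 (3546 CPM per kb) and mt-Nd4l (3519 CPM per kb) each were the higher in 3 of 6 libraries. mt-Nd3 (2755 CPM per kb) and mt-Nd5 came last, mt-Nd3 the higher of the pair in 6 of 6 libraries. All 5 genes of complexes IV and V thus lay above all 8 genes of complexes I and III, in level per kb. The order came from counts in which reads over shared bases and nuclear copies are included; their part in the order was not tested.

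**Figure D3:**
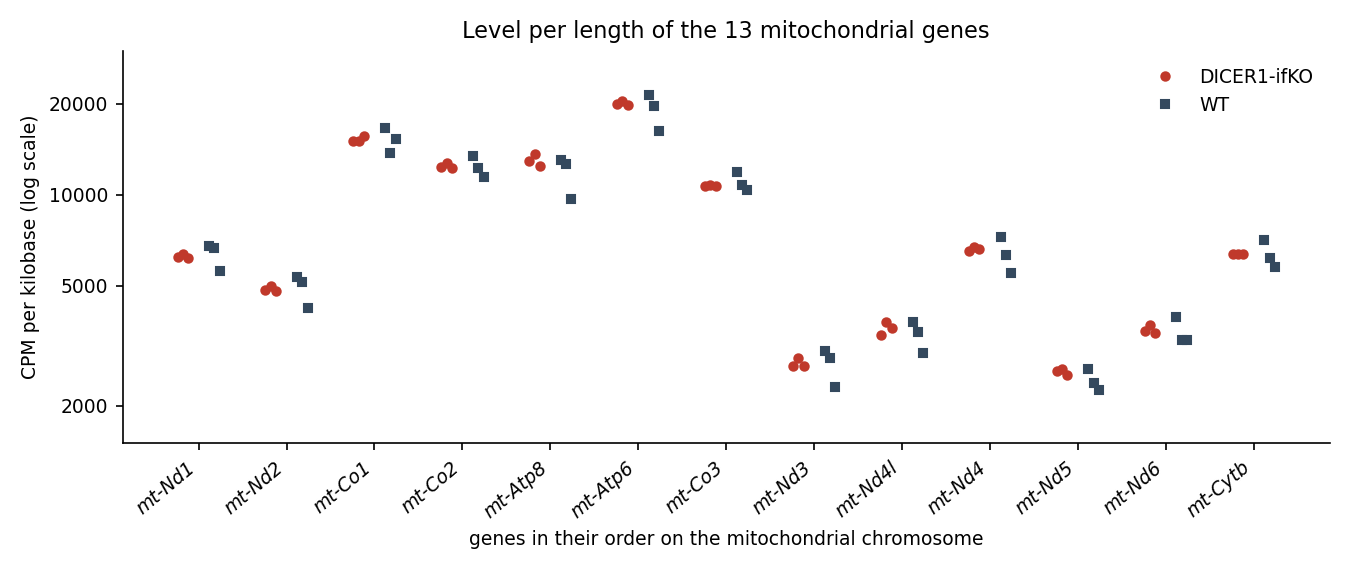
Level of each mitochondrial gene in CPM per kilobase (log scale) in the 3 DICER1-ifKO libraries (red circles) and the 3 WT libraries (dark squares), in the order of the genes on the chromosome. mt-Atp6 is highest and mt-Nd5 lowest, and for no gene do the 2 genotypes lie apart.

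Genes on 1 bicistronic message did not have equal counts per base. mt-Atp8 had 19.3%, 19.9% and 18.9% of the counts of mt-Atp6 in DICER1-ifKO libraries, against 18.3%, 19.3% and 17.9% in WT libraries, which per base is a ratio of 0.646 ± 0.018 in DICER1-ifKO libraries and 0.617 ± 0.025 in WT libraries (SD, n = 3 each). mt-Nd4l had 11.4%, 12.1% and 11.8% of the counts of mt-Nd4 in DICER1-ifKO libraries, against 11.2%, 11.9% and 11.7% in WT libraries, or 0.547 ± 0.018 per base in DICER1-ifKO libraries and 0.539 ± 0.016 per base in WT libraries. Exact nuclear copies match 98.99% of mt-Nd4l, 63.57% of mt-Nd4 and 99.56% of mt-Atp6. mt-Atp8 is 204 bases long and shares 43 of them with mt-Atp6. The part of nuclear copies, shared bases and gene length in these ratios was not tested, so they cannot be read as ratios of message level. In both pairs the upstream gene had fewer counts per base in every library, and the genotypes overlapped. The opposing pair behaved otherwise. mt-Nd6 had 1.38 ± 0.021 of the count density of mt-Nd5 in DICER1-ifKO libraries and 1.45 ± 0.052 in WT libraries. Since the counts take reads of both strands, the mt-Nd6 value includes any RNA antisense to mt-Nd6 that extends past the end of mt-Nd5, and the 2 cannot be told apart.

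Taking each gene as a share of the mitochondrial counts removes the common shift of a library. Even so, libraries of 1 genotype differed in composition by far more than counting error: chi-square per degree of freedom over the 13 genes was 19.2 to 73.1 between DICER1-ifKO libraries and 147.5 to 771.7 between WT libraries. Complex I genes held 30.9%, 31.3% and 30.7% in DICER1-ifKO libraries, against 30.9%, 31.8% and 29.5% in WT libraries. Complex IV genes held 43.5%, 43.2% and 44.1% in DICER1-ifKO libraries, against 43.9%, 42.5% and 47.1% in WT libraries. Complex V genes held 17.7%, 17.8% and 17.3% in DICER1-ifKO libraries, against 17.2%, 17.8% and 15.6% in WT libraries. The genotypes overlapped for each complex, and WT replicate 3 stood apart by a high share of complex IV and a low share of complex V. In that library mt-Co1 alone held 28.0% of the mitochondrial counts, beside 23.7% to 26.0% in the other 5. mt-Nd6, the gene of the other strand, held 2.00%, 2.05% and 1.94% in DICER1-ifKO libraries, against 2.04%, 1.91% and 2.04% in WT libraries.

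Of the 13 genes 2 had shares that did not overlap between genotypes. mt-Nd5 held 5.15%, 5.13% and 4.98% in DICER1-ifKO libraries, against 4.82%, 4.84% and 4.89% in WT libraries. mt-Co3 held 9.08%, 8.98% and 9.06% in DICER1-ifKO libraries, against 9.30%, 9.42% and 9.71% in WT libraries. Scaled to the same mitochondrial total, 8.96% of all genes did not overlap, 2.23% higher and 6.72% lower in DICER1-ifKO. The edgeR fit on this scale called neither. mt-Nd5 had a log2 fold change of 0.07 (SE 0.09, 95% interval -0.10 to 0.24, edgeR adjusted p = 0.9997). That of mt-Co3 was -0.07 (SE 0.08, 95% interval -0.23 to 0.09, edgeR adjusted p = 0.9997). Scaled this way, nuclear genes carry the spread of the mitochondrial total between libraries, and the fit draws its SE largely from all genes. It therefore cannot decide on share differences of this size, and the 8.96% carries the same spread. On this scale 0.0402% of all genes passed; at an unadjusted p below 0.05 the count was 0 of 13, beside 3.96% of all genes. Leaving out any 1 library kept both genes apart in the same direction, which follows from groups that do not overlap.

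**Figure D4:**
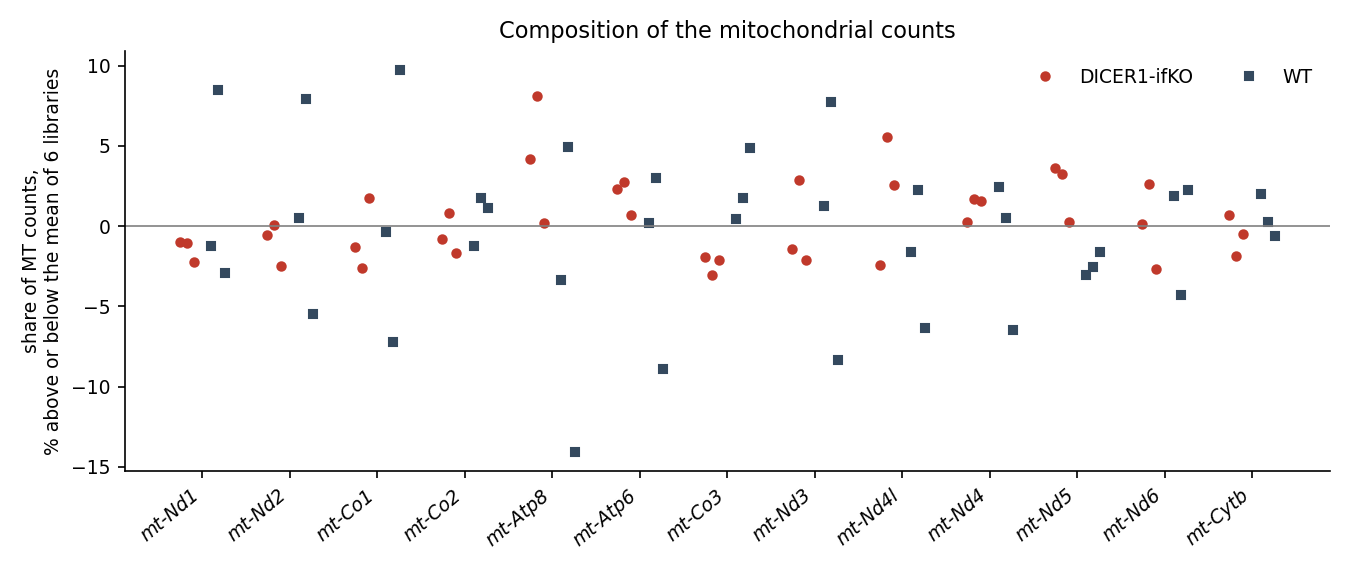
Share of each gene in the mitochondrial counts of a library, as percent above or below the gene's mean over the 6 libraries, for DICER1-ifKO (red circles) and WT (dark squares). mt-Nd5 and mt-Co3 are the 2 genes whose genotypes do not overlap, mt-Nd5 at 4.98% to 5.15% of the mitochondrial counts in DICER1-ifKO and 4.82% to 4.89% in WT, and mt-Co3 at 8.98% to 9.08% in DICER1-ifKO and 9.30% to 9.71% in WT.

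The nuclear genes that serve the mitochondrial genome and its products were read in the same fit, from 10 lists with 164 genes tested. None passed the test, beside 0.161% of all genes. Their log2 fold changes were negative for 123 and positive for 41, with a median of -0.05, against -0.00 for all genes. The median was -0.03 (56 positive) without WT replicate 1 and -0.07 (39 positive) without WT replicate 2. Scaled to the mitochondrial total without WT replicate 3 it was -0.02 (69 positive), beside a median of 0.025 for all genes in that fit. The CPM did not overlap in 25 of the 164 genes, 2 higher and 23 lower in DICER1-ifKO, beside 7.99% higher and 8.07% lower of all genes, and 17 had an unadjusted p below 0.05, beside 10.4% of all genes.

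Of 14 genes for replication and packaging of mitochondrial DNA, 6 had positive and 8 negative fold changes, with a median of -0.01. Tfam, which coats mitochondrial DNA and starts its transcription, averaged 26.3 ± 0.701 CPM in DICER1-ifKO libraries and 28.3 ± 0.536 CPM in WT libraries (edgeR adjusted p = 0.675). Rnaseh1, which removes RNA primers, had a log2 fold change of -0.18 (SE 0.10), and Atad3a, a membrane protein of nucleoids, one of -0.10 (SE 0.07). Of 9 transcription genes 4 were positive and 5 negative, with a median of -0.02. Tfb2m, the factor that melts the promoter with the mitochondrial polymerase, averaged 25.7 ± 0.193 CPM in DICER1-ifKO libraries and 28.5 ± 1.16 CPM in WT libraries (log2 fold change -0.15, SE 0.07, edgeR adjusted p = 0.472). Mrpl12, a ribosomal protein that also binds that polymerase, had a log2 fold change of -0.06 (SE 0.07).

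Of 30 genes that process, stabilise or degrade mitochondrial RNA, 22 had negative fold changes, with a median of -0.07. Supv3l1, the helicase of the RNA degradosome, ran the other way, with 26.9 ± 0.997 CPM in DICER1-ifKO libraries and 22.9 ± 0.554 CPM in WT libraries (log2 fold change 0.23, SE 0.07, edgeR adjusted p = 0.226). Elac2, which cuts the 3′ ends of transfer RNAs out of the precursor, averaged 31.2 ± 0.316 CPM in DICER1-ifKO libraries and 36.3 ± 4.10 CPM in WT libraries (log2 fold change -0.21, SE 0.07, edgeR adjusted p = 0.311). Rexo2, an exonuclease for short RNAs, had a log2 fold change of -0.16 (SE 0.06, edgeR adjusted p = 0.339). For these 3 the CPM of the genotypes did not overlap, yet none passed the test.

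Of 11 biogenesis regulators 7 had positive fold changes, with a median of 0.01. Their smallest p-values belonged to the nuclear receptor Esrra (log2 fold change 0.14, SE 0.07) and to the coactivators Pprc1 (-0.09, SE 0.07) and Ppargc1a (0.08, SE 0.07). Of 19 mitochondrial transfer RNA synthetases 16 had negative fold changes, with a median of -0.07. Yars2, the synthetase for tyrosine, averaged 11.8 ± 0.475 CPM in DICER1-ifKO libraries and 14.5 ± 0.834 CPM in WT libraries (log2 fold change -0.29, SE 0.10, edgeR adjusted p = 0.277). Pars2, for proline, had a log2 fold change of -0.30 (SE 0.13) and Vars2, for valine, one of -0.11 (SE 0.08).

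The nuclear subunits that assemble with the 13 mitochondrial proteins leaned to negative values in complexes I, III, IV and V. In complex I 31 of 36 were negative (median -0.05), in complex III 8 of 9 (median -0.06), in complex IV 13 of 15 (median -0.05) and in complex V 16 of 18 (median -0.05). Complex II, which has no mitochondrially encoded subunit, had 1 negative of 4 (median 0.01), with Sdhb at 0.01, Sdhc at 0.01 and Sdhd at -0.04 in log2 fold change. No difference between complexes was tested.

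The smallest adjusted p of all 164 genes was that of Ndufa1, an accessory subunit of complex I, with 24.2 ± 1.68 CPM in DICER1-ifKO libraries and 29.8 ± 3.05 CPM in WT libraries (log2 fold change -0.30, SE 0.08, edgeR adjusted p = 0.176). Without WT replicate 2 its adjusted p was 0.0334, and with no filter on low counts 0.0499. Ndufab1, the mitochondrial acyl carrier protein, had a log2 fold change of -0.13 and Ndufb8 one of -0.12. In complex III the smallest p-values were those of Uqcr11 (-0.17), Uqcr10 (-0.14) and Uqcrb (-0.09), all small accessory subunits. In complex IV they were those of Cox6a2 (-0.54, SE 0.29, a mean of 0.903 CPM in DICER1-ifKO libraries and 1.35 CPM in WT libraries), Cox7c (-0.13) and Cox6c (-0.10). In complex V they were those of Atpif1, the inhibitor of the synthase (-0.14), Atp5j (-0.11) and Atp5l (-0.10).

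**Figure D5:**
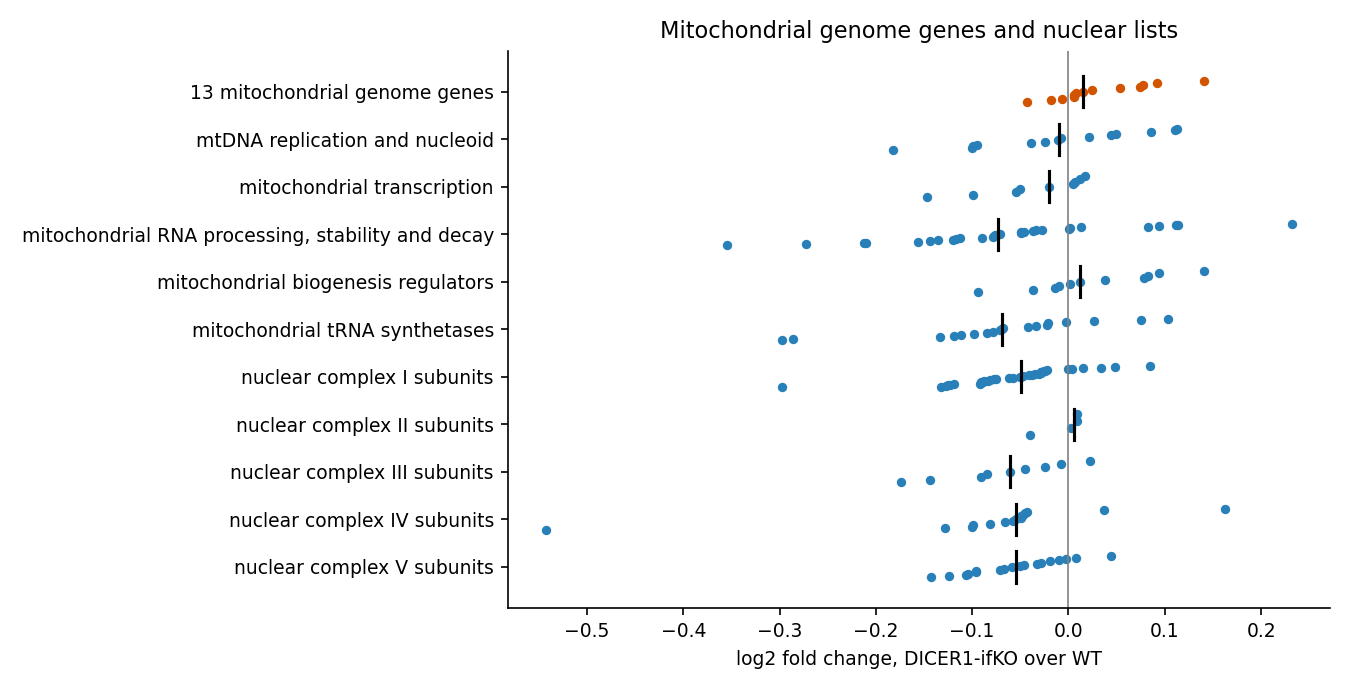
Log2 fold change, DICER1-ifKO over WT, of the 13 mitochondrial genes (orange) and of the tested genes of each nuclear list (blue); black bars mark medians. The mitochondrial median is 0.02, and the medians of the nuclear lists lie between -0.07 and 0.01; no gene shown passed the test.

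Transcript length moved with these values. Over 11916 genes with a matched transcript, Spearman's rho between the log2 fold change and exon length was 0.19, and the deviation of a library from the mean of all had a rho with length of 0.10, 0.12 and 0.08 in DICER1-ifKO libraries, against -0.24, 0.05 and -0.10 in WT libraries. These are correlations across genes within the same libraries. With a length term in the fit, the median log2 fold change was 0.04 for the 13 mitochondrial genes, 12 of them positive, and -0.03 for the 112 nuclear list genes that could be fitted, 38 of them positive; none was called. Among the 13 genes themselves the rho of fold change with length was -0.33, a description of 13 points from the same libraries.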

How the data were processed

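Hippocampal RNA was measured in 6 libraries. Per the labels' protocols, RNA extracted with TRI reagent was DNase-treated, and the libraries were prepared with the TruSeq Stranded mRNA kit. The submitters' processing notes name GRCm38 and mm10 as builds and, as tools, TopHat2 2.0.6, Bowtie2 2.0.5, CASAVA 1.8.2, DESeq2 and SAMtools 0.1.18. Which program counted the reads, with which annotation and strand setting, is not given in the sources used here. Per the file headers, the deposited tables give a raw count and a normalised count for each of 76938 transcripts. The deposited counts were tested; the deposited normalised signal was used only to recompute the mitochondrial share.

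The row with the highest mean count stood for each gene symbol. Genotype was tested by edgeR's quasi-likelihood F-test (version 4.0.16, R 4.3.3) with TMM, a minimum count of 10 and a prior count of 0.125. p-values were adjusted by Benjamini-Hochberg over the 17405 genes tested, with 0.05 as threshold. CPM are scaled by TMM. Intervals are at 95%. Nuclear copies were searched with BLAST 2.17.0 (e-value at most 1e-20). Alternatives included DESeq2 1.42.0, other scalings and filters, every transcript row, a length offset and each library left out; those that add rows over nuclear copies or join 2 choices were chosen after seeing the data. The design had assumed ribosomal and transfer RNA rows. Pairs of libraries of 1 genotype differed by more than sampling noise (chi-square per degree of freedom, 1.75 to 4.35), so each library was 1 replicate.

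The 13 genes and all lists were chosen with earlier results of these data known. Named genes are the 13 mitochondrial genes, the 3 smallest p-values of each nuclear list and Dicer1; genes over nuclear copies were named after their values were seen.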

Additional observations from a re-analysis of the deposited data

How the results depend on the processing

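No mitochondrial gene was called in any of 17 alternative fits, in which the smallest adjusted p of any of the 13 was 0.216. The log2 fold changes of mt-Atp8 (0.02 to 0.22) and mt-Nd5 (0.04 to 0.16) were positive in all 17, lowest without WT replicate 3 and highest without WT replicate 1. Of all genes, 28 of 17405 tested were called in the main fit, and 7 when scaled to the mitochondrial total (also without WT replicate 3). With counts summed over transcripts it was 7 of 17787 genes, by DESeq2 74 of 4748 and without the filter on low counts 151 of 22441. Over every transcript row, 47 of 60500 rows were called. The numbers tested differ, so these counts are not on 1 scale. With 1 library left out the count was 6 to 105 genes. Scaling to the mitochondrial total moved the median of all genes to -0.04. Nuclear list genes called numbered 1 without the filter (Ndufa1) and 0 to 1 with 1 library left out. Shares within the mitochondrial counts that did not overlap numbered 2 to 4 with 1 library left out, beside 2 with all libraries. Leaving out a library cannot lower that count, and the matching share of all genes is not given here. The cause of the other moves was not tested. Without WT replicate 1, 7 of 13 genes had an unadjusted edgeR p below 0.05 (lowest adjusted p 0.254). The share of all genes below that threshold in this fit is not given here, so the 7 cannot be set against a background. The 13 genes also share these libraries and move together in them. Same-numbered libraries did not deviate together (r = -0.07, 0.03 and -0.09). With 3 libraries a genotype, these values cannot decide whether the numbers mark a pairing. A fit with the replicate number as a block called 0 mitochondrial genes, 0 nuclear list genes and 22 genes in all. Alternatives for ribosomal and transfer RNA rows were not run, since the tables hold none.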
